A study of Mus musculus with 16 samples.

Results

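The genes described here were the core transcription factors of heart muscle, Gata4, Gata6, Nkx2-5, Tbx5, Tbx20, Hand2, Mef2a, Mef2c, Mef2d and Hey2. They were chosen by name and by no rule on measured values, but with earlier results of these data known. Each of the 10 symbols matched 1 Ensembl gene among the 55487 in the count table, and all 10 passed the filter on low counts that left 18275 genes for testing. Counts of a single member ranged from 162 to 319 per library for Hey2 and from 7268 to 15031 for Mef2a.

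These proteins form a cooperating network. GATA zinc finger proteins, T-box proteins, the homeodomain protein NKX2-5, basic helix-loop-helix proteins and the MADS-box proteins of the MEF2 family bind short DNA motifs, often side by side, in the promoters and enhancers of genes for contraction, calcium handling and natriuretic peptides. They build the embryonic heart and remain expressed in the adult heart, where several of them take part in the hypertrophic response, in which cardiomyocytes enlarge under load. Much of that control acts on the proteins, through phosphorylation and through the class IIa histone deacetylases that repress MEF2, and an mRNA measurement does not see it.

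Messenger RNA was measured in the heart apex of 16 male mice, with 4 mice in each of 4 groups. Ctrl animals carried the genotype label WT, and KO animals (CARDINAL-KO) lacked Cardinal, a cardiac long noncoding RNA annotated in mouse as Gm12295, in the germline and so in every cell type. Transverse aortic constriction (TAC) narrows the aortic arch with a ligature, so that the left ventricle pumps against a raised pressure, while sham animals had the operation without the ligature. Each genotype was operated on in both ways, in animals that weighed 25 to 30 g at surgery and whose hearts were collected 4 weeks after it. Strain and age were not given in the sources used here. The labels name each animal separately, and whole tissue was sequenced, so a lower level cannot be told apart as fewer cells of a type or as less RNA per cell.

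Libraries held 53169437 to 79404714 counts. Cardinal itself checked the labels: it was at 3.24 to 3.86 CPM (counts per 1000000 counts of the TMM-scaled library size) in Ctrl sham, 2.69 to 8.02 in Ctrl TAC, 0.297 to 0.553 in KO sham and 0.371, 0.276 and 0.368 in 3 KO TAC libraries. The library labelled KO TAC 4 held 4.55 CPM, within the range of Ctrl, so its Cardinal level goes against its label, and the changes of the factors in KO are given again without it. Ctrl TAC 2 stood apart from all others on the second principal component, at -62.5 against -3.40 to 13.8. Markers of other cells moved with TAC. The summed level of 8 cardiomyocyte markers was 48986 to 56630.5 CPM in Ctrl sham, 49343 to 54676 in KO sham, 41913 to 46236 in Ctrl TAC and 35378 to 37867 in KO TAC. Myh6 alone, the largest of them, averaged 24607, 23722, 20046 and 15336 CPM in these groups, in that order. Ttn was not called after TAC in either genotype, and Actn2 was called higher in Ctrl. For 8 fibroblast markers the ranges were 579 to 706, 610.0 to 645, 1123 to 1594 and 1828 to 1995 CPM. The members of that sum moved unequally. Col3a1 averaged 99.7, 89.2, 320 and 418 CPM in these groups and Postn 30.3, 28.0, 179 and 413. Pdgfra averaged 28.4, 28.1, 33.7 and 34.8 CPM and Tcf21 4.71, 4.85, 5.99 and 6.31. Pdgfra, Tcf21 and Dcn were not called in Ctrl. For 8 macrophage and leukocyte markers the ranges were 138 to 189, 139.5 to 188, 194 to 246 and 214 to 306 CPM. Endothelial markers kept to 750.1 to 772, 742 to 864, 726 to 892 and 705 to 811 CPM. Smooth muscle and pericyte markers summed to 1072 to 1130.5, 989.6 to 1066, 877 to 983 and 846 to 979 CPM. Abcc9 alone averaged 415, 381, 266 and 222 CPM in these groups, and was the only marker of the 8 called lower after TAC in each genotype. Of the other smooth muscle and pericyte markers, 2 were called higher after TAC in Ctrl and 3 in KO. The 6 epicardial and mesothelial markers did not exceed 24.3 CPM together in any library. TAC called 5 of 8 fibroblast markers higher in Ctrl and 8 of 8 in KO, 6 and 8 of 8 leukocyte markers higher, and 5 and 6 of 8 cardiomyocyte markers lower, with 1 cardiomyocyte marker higher in Ctrl. Of 8 endothelial markers, 0 were called in Ctrl and 1 in KO, Vwf, which was higher. Over all genes, TAC called 10.4% higher and 9.60% lower in Ctrl, and 17.8% and 16.5% in KO. No marker of the cardiomyocyte, fibroblast, leukocyte, endothelial or smooth muscle lists was at 0 in any library. The part of these shifts in the changes of the transcription factors was not tested. Among atrial markers, the light chain Myl7 had no count in 5 libraries and did not exceed 0.822 CPM, sarcolipin (Sln) had none in 12 and Bmp10 none in 7. The atrial light chain Myl4 was at 1.38 ± 0.135 CPM in Ctrl sham and 1.91 ± 0.293 in Ctrl TAC, which is 0.47 on the log2 scale (edgeR adjusted p = 0.036, and 0.116 without Ctrl TAC 2), and its change in KO was 0.36 (adjusted p = 0.0773). Nppa, also an atrial marker, is among the target genes described further on.

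In Ctrl hearts, TAC changed 4 of the 10 factors: Tbx20 rose, and Tbx5, Mef2a and Gata6 fell (adjusted p under 0.05 by edgeR's quasi-likelihood test with Benjamini-Hochberg adjustment over 18275 genes). The background in that comparison was 20.0% of all genes called, 10.4% higher and 9.60% lower. In KO hearts TAC changed 5, the same 4 and Gata4, which rose, against a background of 34.3% called (17.8% higher and 16.5% lower). The median log2 fold change of the 10 was -0.05 in Ctrl and -0.06 in KO, against 0.00 for all genes tested in each, with members on either side of 0. Their median absolute log2 fold change was 0.21 and 0.32, against 0.18 and 0.23 over all genes. Within the T-box and GATA families the log2 fold changes had opposite signs.

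**Figure D1:**
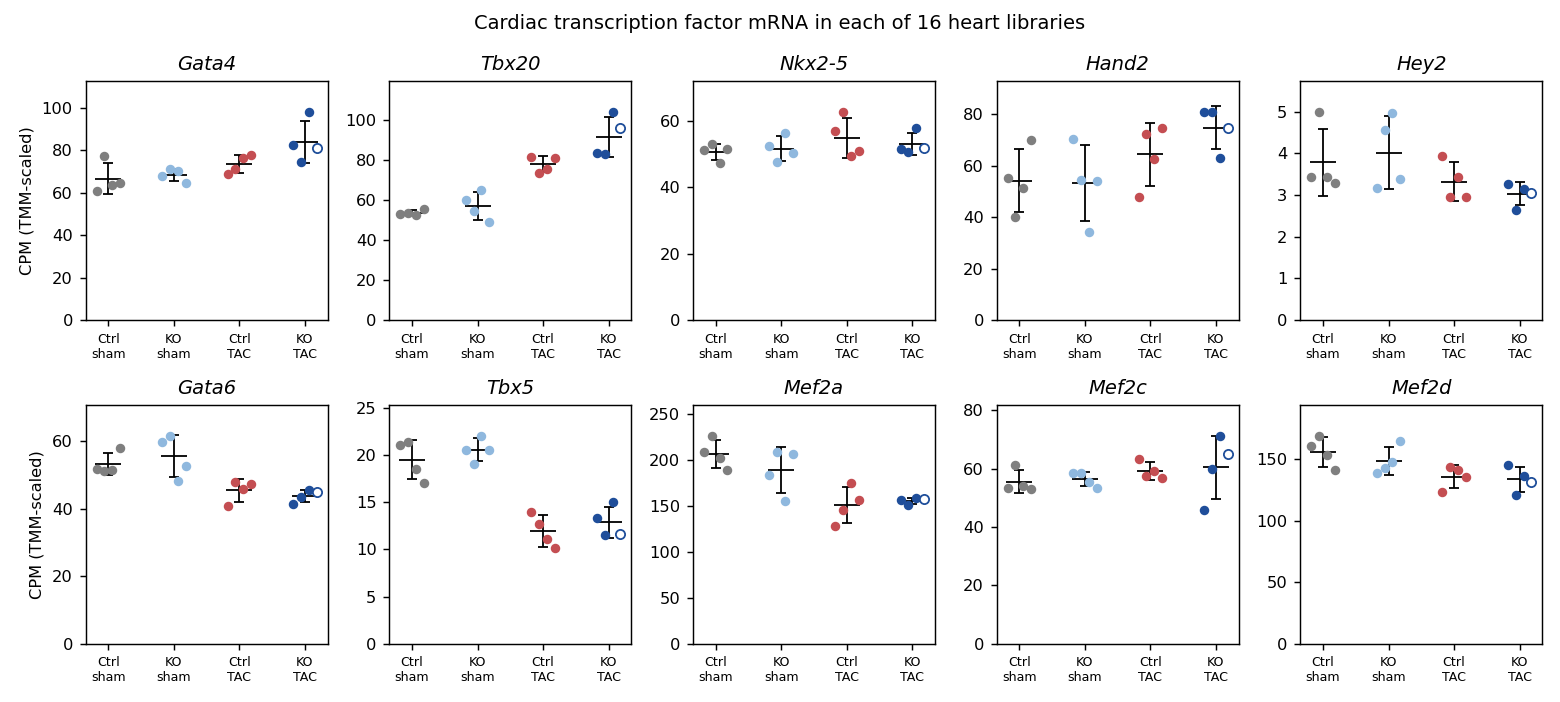
Each panel plots 1 transcription factor, with its CPM (linear axis from 0) in each of the 4 libraries per group as points and the group mean ± SD as a bar; the open point is the library labelled KO TAC 4. Tbx5 lies at 17.01 to 21.4 CPM in Ctrl sham and 10.1 to 13.9 in Ctrl TAC, while Tbx20 moves the other way.

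The T-box factors had the largest log2 fold changes of the 10 in each genotype. Tbx5 (ENSMUSG00000018263, GRCm38 chr5:119832668-119885219, plus strand) encodes an activator that binds next to GATA4 and NKX2-5 and whose loss of a copy causes Holt-Oram syndrome of heart and limb. Its level was 21.03, 21.4, 18.5 and 17.01 CPM in Ctrl sham 1 to 4 and 13.9, 12.7, 11.1 and 10.1 CPM in Ctrl TAC 1 to 4. It was 20.6, 19.1, 22.02 and 20.6 CPM in KO sham and 13.3, 11.6, 15.00 and 11.6 CPM in KO TAC. Every TAC library lay below every sham library. The mean fell from 19.5 ± 2.08 to 11.98 ± 1.68 CPM (SD, n = 4) in Ctrl, a log2 fold change of -0.70 ± 0.10 (SE, edgeR adjusted p = 9.92e-05). In KO it fell from 20.6 ± 1.21 to 12.9 ± 1.64 CPM, a log2 fold change of -0.68 ± 0.10 (adjusted p = 5.92e-05, and -0.63 with adjusted p = 0.000391 without the library labelled KO TAC 4).

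Tbx20 (ENSMUSG00000031965, chr9:24718138-24774303, minus strand) encodes a T-box protein that acts as a repressor in the embryo and is needed to keep adult cardiomyocytes contracting. Its level was 52.97, 53.7, 52.5 and 55.6 CPM in Ctrl sham 1 to 4 and 81.5, 73.8, 75.5 and 81.1 CPM in Ctrl TAC 1 to 4. In KO hearts it was 59.9, 54.3, 65.1 and 49.2 CPM after sham and 83.9, 83.3, 104 and 96.01 CPM after TAC. All 8 TAC libraries were above all 8 sham libraries, whose highest value was 65.1 CPM. The rise was 1.45-fold in Ctrl (log2 0.54 ± 0.08, edgeR adjusted p = 0.000106) and 1.61-fold in KO (log2 0.68 ± 0.08, adjusted p = 3.26e-06). Without the library labelled KO TAC 4 the log2 fold change in KO was 0.66 (adjusted p = 2.34e-05).

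The ratio of the T-box factors inside a library hardly depends on how library size is scaled. The log2 ratio of Tbx20 to Tbx5 was 1.33 to 1.71 in Ctrl sham, 1.26 to 1.56 in KO sham, 2.54 to 3.00 in Ctrl TAC and 2.65 to 3.05 in KO TAC. Sham and TAC libraries did not overlap. TAC raised the ratio 2.37-fold in Ctrl and 2.58-fold in KO, each with p = 0.0286 in an exact two-sided permutation test, the smallest p that 4 against 4 libraries can give, and an adjusted p of 0.0762 over the 16 ratio tests made. When the library labelled KO TAC 4 was left out, the log2 shift in KO was 1.30, against 1.37 with it. With TAC and sham labels permuted within genotypes over all 16 libraries, an exact test added after those results were seen, the mean shift was 1.30 (p = 0.000408, the smallest it can give, adjusted p = 0.00163 over 4 ratios). Per kilobase of annotated exon, Tbx5 made up 48.1% ± 3.10 of the summed Tbx5 and Tbx20 level in Ctrl sham, 48.1% ± 2.47 in KO sham, 28.2% ± 3.01 in Ctrl TAC and 26.5% ± 2.18 in KO TAC (SD, n = 4).

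**Figure D2:**
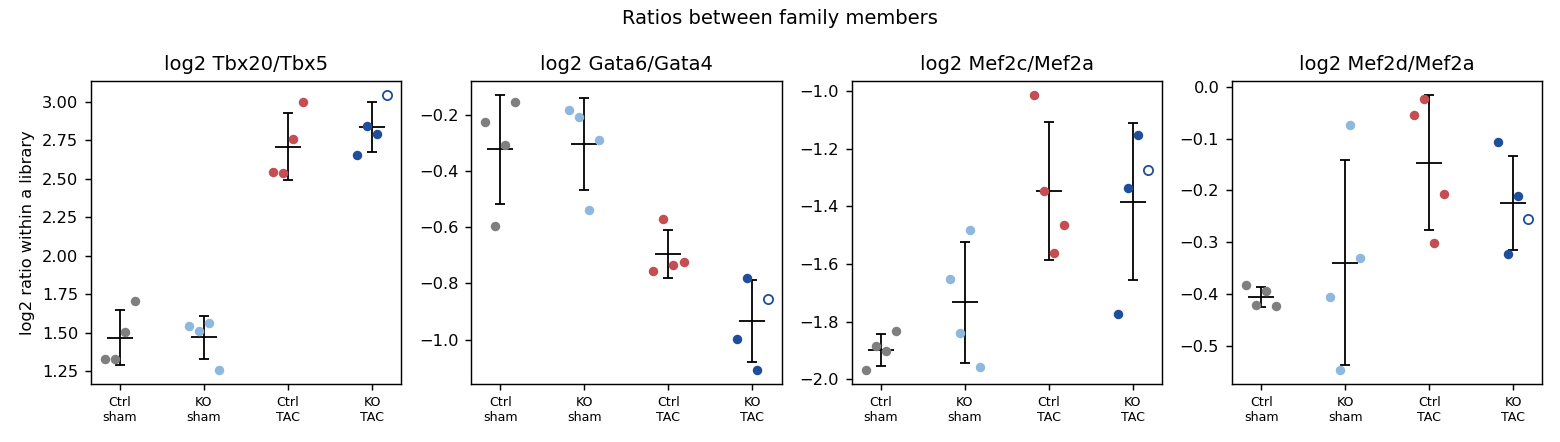
Log2 ratios of family members within each of the 16 libraries, by group, with the mean ± SD; the open point is the library labelled KO TAC 4. The log2 ratio of Tbx20 to Tbx5 lies at 1.33 to 1.71 in Ctrl sham and 2.54 to 3.00 in Ctrl TAC, and Gata6 to Gata4 is lowest in KO TAC.

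The GATA factors had smaller changes, again of opposite sign. GATA4 and GATA6 bind the same motif and can stand in for each other in part, and GATA4 is an effector of hypertrophic signals on the natriuretic peptide genes. Gata4 (ENSMUSG00000021944, chr14:63198922-63271692, minus strand) was at 67.9, 71.2, 70.2 and 64.5 CPM in KO sham 1 to 4 and 82.7, 74.7, 98.01 and 81.1 CPM in KO TAC 1 to 4, with no overlap. It was 60.8, 77.6, 63.9 and 64.7 CPM in Ctrl sham and 68.7, 71.4, 76.3 and 77.9 CPM in Ctrl TAC. There the groups overlapped, because Ctrl sham 2 was as high as the TAC libraries. The log2 fold change was 0.30 ± 0.08 in KO (edgeR adjusted p = 0.0074, and 0.32 with 0.0116 without the library labelled KO TAC 4) and 0.14 ± 0.08 in Ctrl (adjusted p = 0.244, 95% interval -0.03 to 0.31). The responses of the genotypes were compared directly in the interaction, which was not called (0.16 ± 0.11, adjusted p = 0.649).

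Gata6 (ENSMUSG00000005836, chr18:11052064-11085635, plus strand) went down. It was at 51.9, 51.3, 51.6 and 58.1 CPM in Ctrl sham and 40.7, 48.1, 45.9 and 47.2 CPM in Ctrl TAC, and at 59.9, 61.6, 48.3 and 52.8 CPM in KO sham and 41.4, 43.5, 45.5 and 44.8 CPM in KO TAC. TAC libraries lay below sham libraries within each genotype. The log2 fold change was -0.23 ± 0.07 in Ctrl (edgeR adjusted p = 0.0343) and -0.35 ± 0.07 in KO (adjusted p = 0.00115, and -0.36 with 0.00295 without the library labelled KO TAC 4). The call in Ctrl was lost without Ctrl sham 1 (adjusted p = 0.0576), Ctrl sham 4 (0.106), Ctrl TAC 1 (0.112) or Ctrl TAC 3 (0.057), and in KO it became 0.0547 with a model term for animal numbers that start with 33. Gata6 shares 93 exonic bases with the antisense gene 1010001N08Rik, which also fell (-0.43 in Ctrl and -0.55 in KO on the log2 scale) and had 291 to 622 counts per library.

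The log2 ratio of Gata6 to Gata4 was -0.60 to -0.16 in Ctrl sham, -0.54 to -0.18 in KO sham, -0.76 to -0.57 in Ctrl TAC and -1.11 to -0.78 in KO TAC. The difference of TAC from sham was -0.37 in Ctrl (exact permutation p = 0.0571, adjusted p = 0.131) and -0.63 in KO (exact permutation p = 0.0286, adjusted p = 0.0762, and -0.66 when the library labelled KO TAC 4 was left out). KO TAC libraries also lay below all Ctrl TAC libraries, with a difference of -0.24 (exact permutation p = 0.0286, adjusted p = 0.0762, or -0.27 without the library labelled KO TAC 4). Permuted within genotypes, the TAC shift of -0.50 had exact p = 0.000816 and adjusted p = 0.00163. Gata4 took 67.5% ± 2.89 of the summed per-kilobase level of both genes in Ctrl sham, 67.3% ± 2.45 in KO sham, 72.96% ± 1.17 in Ctrl TAC and 76.1% ± 1.84 in KO TAC.

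The MEF2 genes encode close relatives. They begin with the MADS box that binds DNA. The first 90 coding bases of the principal transcripts (GENCODE release M21), where that box starts, are shown because reads of so similar genes can be confused, with the positions at which the 3 genes differ in capitals.
Mef2a: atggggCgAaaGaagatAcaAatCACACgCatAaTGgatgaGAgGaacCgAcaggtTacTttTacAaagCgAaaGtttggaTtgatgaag
Mef2c: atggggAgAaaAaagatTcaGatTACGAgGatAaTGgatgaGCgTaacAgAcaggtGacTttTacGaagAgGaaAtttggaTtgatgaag
Mef2d: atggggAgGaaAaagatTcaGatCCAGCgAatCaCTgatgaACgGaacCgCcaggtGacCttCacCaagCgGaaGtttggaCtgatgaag
They differed at 27 of 90 positions. Mef2a matched Mef2c at 82.2% and Mef2d at 76.7% of them, and Mef2c matched Mef2d at 78.9%. No stretch of 50 bases was shared between the annotated transcripts of any 2 members.

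Mef2a (ENSMUSG00000030557, chr7:67231163-67372858, minus strand) had the highest CPM of the 10 in Ctrl sham, and its protein drives genes for sarcomere, mitochondria and stress. Its level was 209, 226, 202 and 189 CPM in Ctrl sham and 128, 146, 174 and 157 CPM in Ctrl TAC, without overlap. In KO it was 184, 209, 155 and 207 CPM after sham and 157, 151, 158 and 157 CPM after TAC. KO sham 3 was as low as the KO TAC libraries, so these groups overlapped. The log2 fold change was -0.45 ± 0.09 in Ctrl (edgeR adjusted p = 0.00217) and -0.28 ± 0.09 in KO (adjusted p = 0.0275). The KO call did not withstand the omission of single libraries: adjusted p was 0.0956 and 0.0897 without KO sham 2 or 4, and 0.053, 0.0698, 0.0514 and 0.0507 without KO TAC 1, 2, 3 or the library labelled KO TAC 4. Mef2a shares 302 exonic bases with Lysmd4 on the other strand, which fell as well (-0.28 in Ctrl and -0.49 in KO on the log2 scale).

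Mef2d (ENSMUSG00000001419, chr3:88142372-88172086, plus strand), a MEF2 gene known for driving pathological remodelling in mice, was at 160.5, 169, 153 and 141 CPM in Ctrl sham and 123, 143, 142 and 136 CPM in Ctrl TAC. In KO it ranged over 139 to 165 CPM after sham and 121 to 146 after TAC. The groups overlapped in each genotype. Its log2 fold changes of -0.20 ± 0.07 in Ctrl (edgeR adjusted p = 0.0583) and -0.15 ± 0.07 in KO (adjusted p = 0.11) were not called alone. Averaged over genotypes the value of -0.17 ± 0.05 was called (adjusted p = 0.00925), in a comparison in which 41.5% of genes were, and was still called when the library labelled KO TAC 4 was left out (adjusted p = 0.0185). The call in Ctrl appeared without Ctrl sham 4 (adjusted p = 0.0265), KO sham 4 (0.0459), Ctrl TAC 2 (0.049) or KO TAC 2 (0.0477).

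Mef2c (ENSMUSG00000005583, chr13:83504034-83667080, plus strand), which is essential for the embryonic heart, was at 53.5, 61.3, 53.9 and 52.99 CPM in Ctrl sham and 63.4, 57.3, 59.01 and 56.8 CPM in Ctrl TAC. It was 58.4, 58.3, 55.5 and 53.2 CPM in KO sham and 45.8, 59.8, 71.2 and 64.98 CPM in KO TAC. The KO TAC libraries spread on either side of the sham libraries, with KO TAC 1 the lowest of all 16 and KO TAC 3 the highest. The log2 fold change was 0.09 ± 0.10 in Ctrl (edgeR adjusted p = 0.553) and 0.10 ± 0.10 in KO (adjusted p = 0.455, 95% interval -0.10 to 0.30). Without KO TAC 1 it was 0.21 with adjusted p = 0.0239.

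Within libraries, the log2 ratio of Mef2c to Mef2a was -1.97 to -1.83 in Ctrl sham and -1.56 to -1.01 in Ctrl TAC, without overlap, and -1.96 to -1.48 in KO sham and -1.77 to -1.15 in KO TAC. It rose by 0.55 in Ctrl (exact permutation p = 0.0286, adjusted p = 0.0762), and differed by 0.35 in KO (exact permutation p = 0.0857). The ratio of Mef2d to Mef2a was higher by 0.26 in Ctrl TAC than in Ctrl sham (exact permutation p = 0.0286, adjusted p = 0.0762) and by 0.12 in KO TAC than in KO sham (exact permutation p = 0.314). With labels permuted within genotypes the exact p-values were 0.00163 for Mef2c to Mef2a and 0.0155 for Mef2d to Mef2a, or 0.00218 and 0.0155 after adjustment over 4 ratios. Of the summed per-kilobase level of the 3 genes, Mef2a took 32.2% ± 0.177 in Ctrl sham, 31.1% ± 2.80 in KO sham, 27.9% ± 1.97 in Ctrl TAC and 28.9% ± 0.866 in KO TAC.

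Nkx2-5, Hand2 and Hey2 each stand for a different family. Nkx2-5 (ENSMUSG00000015579, chr17:26838664-26845009, minus strand) encodes the homeodomain partner of GATA4 and TBX5 and was not called in any comparison. It was at 51.1, 52.9, 47.2 and 51.4 CPM in Ctrl sham and 56.9, 62.6, 49.3 and 50.9 CPM in Ctrl TAC, and at 47.6 to 56.3 CPM in KO sham and 50.6 to 57.8 CPM in KO TAC. All 4 groups overlapped. Its log2 fold change after TAC was 0.12 (95% interval -0.04 to 0.27) in Ctrl and 0.04 (-0.12 to 0.19) in KO, so changes of the size seen for Tbx5 or Tbx20 lie outside both intervals.

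Hand2 (ENSMUSG00000038193, chr8:57320983-57324633, plus strand), a basic helix-loop-helix factor of the embryonic right ventricle, varied most of the 10 between animals in 3 of the 4 groups, by the coefficient of variation. It was at 55.2, 40.2, 51.5 and 70.05 CPM in Ctrl sham, 70.3, 54.5, 34.3 and 54.2 in KO sham, 47.8, 72.3, 62.8 and 74.8 in Ctrl TAC and 80.8, 80.9, 63.04 and 74.6 in KO TAC. That coefficient was 22.7%, 27.6%, 19.00% and 11.2%, against 2.51%, 12.1%, 5.02% and 10.9% for Tbx20. At that spread, log2 fold changes of 0.25 ± 0.21 in Ctrl (edgeR adjusted p = 0.462) and 0.49 ± 0.21 in KO (adjusted p = 0.0903) were not called, although the KO value was called without KO sham 1 (adjusted p = 0.0321). The value averaged over genotypes was called without Ctrl sham 4, KO sham 1 or Ctrl TAC 1 (adjusted p = 0.0274, 0.0228 and 0.0326). Hand2 shares 461 exonic bases with the antisense gene Hand2os1, and 15.8% of its 50-base windows occur there in reverse complement. Hand2os1 was at 45.8 to 63.5 CPM in Ctrl sham, 51.9 to 64.1 in KO sham, 51.4 to 54.3 in Ctrl TAC and 51.02 to 54.8 in KO TAC, and its direction after TAC was the opposite (averaged over genotypes -0.16 against 0.37 for Hand2 on the log2 scale, with adjusted p = 0.0455 and 0.0621). Whether counting used the strand is not given in the sources used here, so how reads of the shared bases were divided is not known.

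Hey2 (ENSMUSG00000019789, chr10:30832359-30842801, minus strand), a Notch-induced repressor that marks compact ventricular muscle, was the scarcest member at 3.29 to 4.98 CPM in Ctrl sham, 3.16 to 4.96 in KO sham, 2.94 to 3.92 in Ctrl TAC and 2.63 to 3.27 in KO TAC. Groups overlapped in each genotype, and the log2 fold changes of -0.20 ± 0.16 and -0.41 ± 0.16 were not called (edgeR adjusted p = 0.449 and 0.0609). Averaged over genotypes, -0.30 ± 0.11 was called (adjusted p = 0.043), and 9 of the 16 fits that left out a library lost this call, with adjusted p = 0.11 without Ctrl sham 2 and 0.0623 without the library labelled KO TAC 4; the others were KO sham 2 and 3, Ctrl TAC 2, 3 and 4, and KO TAC 2 and 3. In KO, the omission of Ctrl sham 2, KO sham 1 or KO sham 4 brought a call (adjusted p = 0.0362, 0.0282 and 0.0437).

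**Figure D3:**
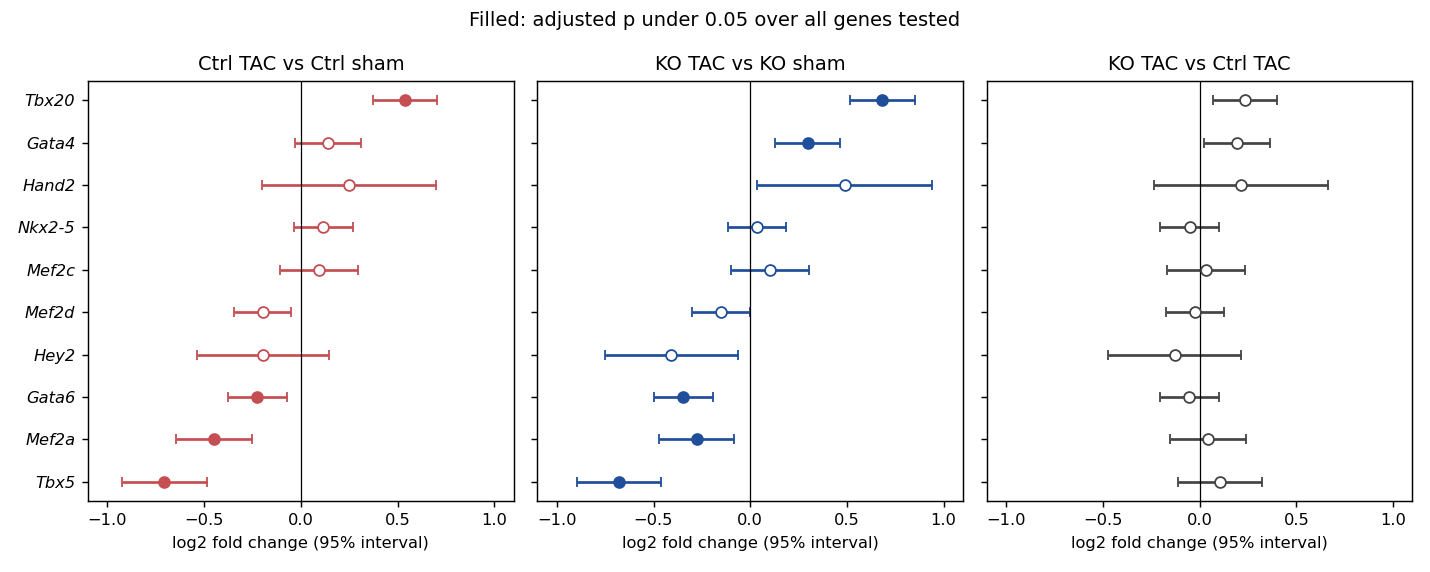
Log2 fold change with its 95% interval for each of the 10 factors in 3 comparisons; filled points have an edgeR adjusted p under 0.05 over all genes tested. Tbx20 at 0.54 and 0.68 and Tbx5 at -0.70 and -0.68 lie furthest from 0 after TAC, and no factor is filled in KO TAC against Ctrl TAC.

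Loss of Cardinal was then compared within each operation. In unloaded hearts, KO against Ctrl, 0 of 10 factors were called by edgeR and 0 had an unadjusted p under 0.05, with a background of 0% of genes called (0 of 18275, 479 at an unadjusted p under 0.05, and 3 called by DESeq2). The log2 differences ran from -0.13 for Mef2a (95% interval -0.33 to 0.06) to 0.09 for Tbx20 (-0.08 to 0.26). For Hand2, the interval of -0.48 to 0.43 leaves room for larger differences. After TAC, KO against Ctrl, 0 of 10 were called by edgeR with a background of 2.68%, and DESeq2 called none of them either.

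By p-value, the factors nearest to a difference after TAC were Tbx20 and Gata4, the members called higher after TAC in KO. They were the 2 of 10 with an unadjusted edgeR p under 0.05, as were 3380 of all 18275 genes. Tbx20 was higher in KO TAC (91.8 ± 10.05 CPM) than in Ctrl TAC (77.99 ± 3.92 CPM) in all libraries, by 0.24 ± 0.08 on the log2 scale (unadjusted p = 0.00821, edgeR adjusted p = 0.115). Without the library labelled KO TAC 4 the difference was 0.21 (adjusted p = 0.203). Gata4 differed by 0.19 ± 0.08 (unadjusted p = 0.0268, edgeR adjusted p = 0.198), with overlapping groups, and by 0.21 without that library (adjusted p = 0.217). The other 8 lay between -0.13 for Hey2 and 0.22 for Hand2. The interaction of genotype and surgery called 0 of 10 (background 0.0109%, 2 genes of 18275), and ran from -0.21 for Hey2 to 0.24 for Hand2. At an unadjusted p under 0.05 it held 0 of the 10 and 2024 of all genes. For Tbx5 the interval of the interaction was -0.28 to 0.33 and for Tbx20 -0.09 to 0.38 on the log2 scale, so the responses of the genotypes could still differ within those limits.

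Leaving out the library labelled KO TAC 4 gave no call after TAC in KO for the 5 factors that were not called with it. The log2 fold changes were then 0.49 for Hand2 (edgeR adjusted p = 0.136), -0.41 for Hey2 (0.0998), -0.14 for Mef2d (0.187), 0.06 for Mef2c (0.691) and 0.05 for Nkx2-5 (0.711). The interaction still called 0 of 10, and ran from -0.22 for Hey2 to 0.24 for Hand2. In KO the log2 ratio of Mef2c to Mef2a then differed by 0.31 and that of Mef2d to Mef2a by 0.13. Permuted within genotypes, the exact adjusted p-values without that library were 0.00163 for Tbx20 to Tbx5, 0.00163 for Gata6 to Gata4, 0.00544 for Mef2c to Mef2a and 0.0212 for Mef2d to Mef2a.

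Levels of different genes were compared per kilobase. With all annotated exons of a gene as its length, the order in Ctrl sham was Nkx2-5 (29.5 ± 1.43 CPM per kilobase), Mef2d (26.1 ± 1.99), Hand2 (23.1 ± 5.25), Gata4 (17.1 ± 1.90), Mef2a (14.1 ± 1.06), Gata6 (8.18 ± 0.502), Tbx20 (4.48 ± 0.112), Tbx5 (4.17 ± 0.445), Mef2c (3.53 ± 0.250) and Hey2 (0.824 ± 0.175). The libraries of Nkx2-5, Mef2d, Hand2 and Gata4 overlapped from each to the next, as did those of Tbx20, Tbx5 and Mef2c. In Ctrl TAC, Tbx5 came after Mef2c (2.56 ± 0.359 against 3.76 ± 0.190 CPM per kilobase, without overlap), and Tbx20 overlapped Gata6 (6.50 ± 0.326 against 6.99 ± 0.507). The order depends on the length, and so do the shares within families given above. With the length of 1 principal transcript, Mef2d and Mef2a led in Ctrl sham, with Mef2d at 88.3 and Mef2a at 77.5 CPM per kilobase, before Nkx2-5 at 33.2. Gata4 was then at 19.8 and Gata6 at 16.5 CPM per kilobase, closer together than with all exons.

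Of 25 relatives in the same families, 13 passed the filter. TAC raised 3 and lowered 1 in Ctrl, and raised 2 and lowered 2 in KO, against 20.0% and 34.3% of all genes called in either direction. Tbx15, a T-box gene known from skeleton and muscle, rose from 0.454 ± 0.106 to 3.97 ± 1.86 CPM in Ctrl (log2 3.11 ± 0.32, edgeR adjusted p = 4.84e-06) and by 2.78 in KO (adjusted p = 3.4e-06). Gata3, a factor of lymphocytes and other lineages, fell from 0.358 ± 0.212 to 0.113 ± 0.0489 CPM (log2 -1.67 ± 0.46, adjusted p = 0.0151), and by a log2 fold change of -1.74 in KO (adjusted p = 0.00493). Heyl, the Hey2 relative of vascular smooth muscle, rose by 0.54 in Ctrl and 0.80 in KO on the log2 scale (adjusted p = 0.0013 and 1.39e-05). Serum response factor (Srf), a MADS-box relative of MEF2, rose in Ctrl (0.32, adjusted p = 0.0297) and was at 0.23 in KO (adjusted p = 0.0832). Tbx3, the repressor of the conduction system, fell in KO (-0.41, adjusted p = 0.0497) and was at -0.13 in Ctrl (adjusted p = 0.62). Without the library labelled KO TAC 4, Tbx3 was no longer called in KO (adjusted p = 0.0702) and Hes1, a Notch target like Hey2, was (0.57, adjusted p = 0.0163), and without Ctrl TAC 2 Srf was no longer called in Ctrl (adjusted p = 0.0711). The 12 relatives that did not pass the filter did not exceed 0.176 CPM in any library, and no relative was called between genotypes.

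Of 50 cofactors and regulators, 47 passed the filter, and TAC raised 9 and lowered 6 in Ctrl and raised 11 and lowered 7 in KO (10 and 7 without the library labelled KO TAC 4), where 20.0% and 34.3% of all genes were called in either direction. Their median absolute log2 fold change was 0.17 in Ctrl and 0.20 in KO, against 0.18 and 0.23 over all genes. The class IIa deacetylases that hold MEF2 proteins in check fell in part: Hdac5 had a log2 fold change of -0.31 ± 0.05 in Ctrl (edgeR adjusted p = 0.000259) and -0.44 ± 0.05 in KO (adjusted p = 2.71e-06), and Hdac4 one of -0.56 and -0.60 (adjusted p = 0.0294 and 0.0123). Hopx, a homeodomain protein without DNA binding that restrains SRF, fell, with a log2 fold change of -0.56 ± 0.11 in Ctrl and -1.17 ± 0.11 in KO (adjusted p = 0.00234 and 1.02e-06). Of the 47 cofactors, Hopx was the only 1 called between KO TAC and Ctrl TAC (-0.54, adjusted p = 0.0221), where 2.68% of all genes were called. That call held without the library labelled KO TAC 4 (adjusted p = 0.0238) but not without Ctrl TAC 2 (adjusted p = 0.0879). With a model term for animal numbers starting with 25, the same comparison called 12 genes in all. Whether Hopx was among them is not given here. Mapk14, the p38 kinase that phosphorylates MEF2 proteins, fell (-0.32 in Ctrl and -0.41 in KO, adjusted p = 0.00235 and 0.00013). The GATA cofactors went apart in Ctrl, with Zfpm1 at 0.35 and Zfpm2 at -0.32 (adjusted p = 0.00665 and 0.0156). Mapk7, a kinase that activates MEF2 proteins, rose by 0.39 in Ctrl, and Mrtfa, an SRF coactivator, by 0.38 (adjusted p = 0.00795 and 0.00232). In KO, Foxm1, a factor of cell division, rose by 1.06 from a low level of 1.34 ± 0.408 CPM, and Wwtr1 (TAZ), a partner of TEAD proteins, rose by 0.46 (adjusted p = 0.00242 and 2.39e-05). The interaction of genotype and surgery called 0 of the 47 cofactors, where 2 of 18275 genes were called. A gene given here for 1 genotype is thus not shown to respond differently in the other.

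Genes known as targets of these factors were then read, with no test of which factor acts on them. Of 46 listed, 45 passed the filter, and TAC raised 17 and lowered 11 in Ctrl and raised 13 and lowered 18 in KO (12 and 16 without the library labelled KO TAC 4), where 20.0% and 34.3% of all genes were called in either direction. The median log2 fold change was 0.01 in Ctrl and 0.03 in KO, and their median absolute log2 fold change was 0.36 and 0.52, against 0.18 and 0.23 over all genes. Natriuretic peptides and stretch-responsive genes rose: Acta1 (skeletal actin) by 3.91 in Ctrl and 3.66 in KO, Nppa by 2.98 and 3.99, Nppb by 2.49 and 2.55, Ankrd1 by 2.13 and 2.42, Xirp2 by 1.85 and 2.02, and the slow myosin Myh7 by 1.17 and 1.38 on the log2 scale (edgeR adjusted p from 1.03e-08 to 0.00116). Calcium handling genes fell in part, with the calcium pump gene Atp2a2 at -0.52 and -0.77 and phospholamban (Pln) at -0.47 and -0.58, while calsequestrin (Casq2) rose by 0.44 and 0.38. Between KO TAC and Ctrl TAC 5 of the 45 targets were called, where 2.68% of all genes were (489 of 18275, with 241 lower). All 5 were lower in KO: Hrc (-0.42), Myh6 (-0.39), Ryr2 (-0.34), Atp2a2 (-0.29) and Ckm (-0.21), with adjusted p from 0.00753 to 0.0422. Without the library labelled KO TAC 4, 4 of these 5 were called, with Ckm lost (adjusted p = 0.0927), and without Ctrl TAC 2 Hrc alone was (adjusted p = 0.0319). With a model term for animal numbers starting with 25, that comparison called 12 genes in all. Which of the 5 targets were among them is not given here. Myh6 and Ryr2 are also in the cardiomyocyte marker list whose sum was lowest in KO TAC.

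**Figure D4:**
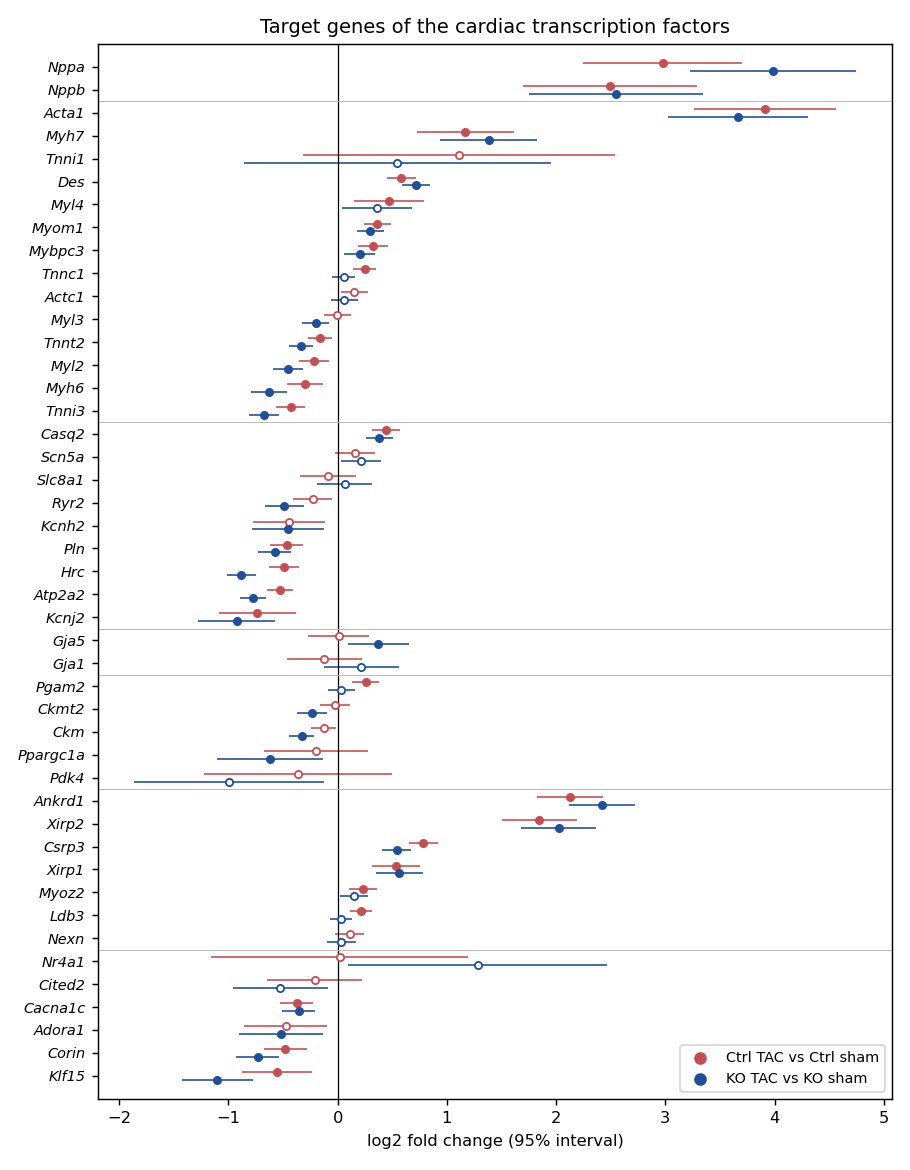
Log2 fold change after TAC with its 95% interval for 45 target genes, grouped by role between the grey lines (natriuretic peptides, sarcomere, calcium and ion handling, connexins, metabolism, stress and Z disc, other); red is Ctrl, blue is KO, and filled points have an edgeR adjusted p under 0.05. Nppa, Nppb, Acta1, Ankrd1 and Xirp2 lie furthest to the right, from 1.85 to 3.99.

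The 250 bases before the annotated start of 3 of these rising genes are shown as examples of windows with a match to a motif of at least 1 of the families described, and were chosen after the matches were seen. Sequences are from RefSeq (GRCm38.p6), read 5′ to 3′ on the strand of the gene, with motif matches in capitals.
Nppa, chr4:148000472-148000721, plus strand: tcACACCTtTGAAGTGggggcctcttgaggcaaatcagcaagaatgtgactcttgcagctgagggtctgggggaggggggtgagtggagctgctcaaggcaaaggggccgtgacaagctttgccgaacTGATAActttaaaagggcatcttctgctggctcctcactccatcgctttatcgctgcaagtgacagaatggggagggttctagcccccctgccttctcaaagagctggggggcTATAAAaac
Nppb, chr4:147985650-147985899, plus strand: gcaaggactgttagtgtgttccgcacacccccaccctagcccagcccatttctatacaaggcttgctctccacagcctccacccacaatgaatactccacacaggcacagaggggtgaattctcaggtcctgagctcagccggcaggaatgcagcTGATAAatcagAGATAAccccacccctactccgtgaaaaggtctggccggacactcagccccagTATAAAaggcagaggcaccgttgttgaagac
Xirp2, chr2:67445752-67446001, plus strand: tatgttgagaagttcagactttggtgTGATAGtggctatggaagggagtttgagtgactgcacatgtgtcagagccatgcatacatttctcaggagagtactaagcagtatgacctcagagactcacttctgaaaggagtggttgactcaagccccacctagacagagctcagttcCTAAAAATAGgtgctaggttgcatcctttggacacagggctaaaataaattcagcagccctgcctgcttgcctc
The motifs searched on both strands were, for GATA factors, AGATAA, with AGATAG, also TGATAA, and lastly TGATAG. For T-box factors AGGTGT was searched, for NKX2-5 the letters TNAAGTG, for basic helix-loop-helix factors CATCTG and also CACGTG, with TATAAA for the TATA box, and the MEF2 and CArG (SRF) motifs by name. Nppa held 1 GATA match, a T-box match on the minus strand with an NKX2-5 match 1 base after it, and a TATA match. Nppb held 2 GATA matches and a TATA match, and Xirp2 held 1 GATA match and 1 MEF2 match that reads as one on both strands. Over 32851 promoter windows of that length, 26.5% held a GATA match, 11.8% a T-box match, 10.1% an NKX2-5 match, 2.92% a MEF2 match, 1.47% a CArG box, 14.4% CATCTG, 6.02% CACGTG and 12.4% TATAAA. Among the other target windows read, that of Myh6, which was lower in KO TAC than in Ctrl TAC, held a GATA match, while that of Acta1, which rose, held a CArG box and a TATA match and none for the GATA, T-box, NKX2-5 or MEF2 motifs. A match is a run of letters and not a measured site.

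Promoters of 7 of the 10 factors were matched: Nkx2-5, Tbx20, Hand2, Hey2, Mef2a, Mef2c and Mef2d. Hand2 held 2 GATA matches and 1 CATCTG, and the 3 starts of Mef2c held 1 T-box match, 1 CATCTG and 2 TATA matches in all. The windows of Nkx2-5, Tbx20, Hey2, Mef2a and Mef2d held none of the letters searched.

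For each factor called after TAC, the 3 genes with the most similar course over the 16 libraries were taken from 10108 candidates, by the root mean square (RMS) difference of centred log2 CPM. For Tbx20 they were Spcs3 (0.0696), Itga5 (0.0917), Tuba1c (0.0926), where the bracket gives the RMS difference on the log2 scale, against a SD of 0.346 for Tbx20 itself. For Tbx5 (SD 0.389) they were Dusp18 (0.124), Pfas (0.133), Cbx7 (0.134). Mef2a (SD 0.235) had Neo1 (0.0454), Zadh2 (0.0693), Pdp1 (0.0750) as its nearest genes. For Gata4 (SD 0.173) the list was Rassf8 (0.0697), Smurf1 (0.0711), Bace1 (0.0786), and for Gata6 (SD 0.179) it was Jmy (0.0676), Tmem170b (0.0691), Fam173a (0.0772). All points share the 16 libraries and the contrast of TAC with sham, and no member of the set was allowed as a neighbour.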

How the data were processed

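Per the labels, RNA from the heart apex was poly(A)-selected, made into TruSeq libraries and sequenced as paired 150-base reads. The submitters' processing notes name cutadapt 2.3, FastQC, HISAT2 2.1.0, edgeR 3.26.1 and the build GRCm38; the counting program, annotation and use of strand are not given in the sources used here. The authors deposited raw read counts per Ensembl gene (55487 genes, 16 columns, no normalization), and each column was tied to its sample by the animal number that both carry. Replicates were numbered in accession order and pair nothing.

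Symbols, positions and exon lengths came from GENCODE release M21 (GRCm38), which held 99.5% of the identifiers. Genes were filtered with filterByExpr and libraries scaled by TMM in edgeR 4.0.16 (R 4.3.3). A quasi-likelihood model (glmQLFit, robust) with 1 mean per group was fitted to all 16 libraries and all 18275 genes, and 6 contrasts were tested (glmQLFTest) with Benjamini-Hochberg adjustment over all genes and a threshold of 0.05. The SE is the absolute log2 fold change over the square root of F. Ratios used log2 CPM with a prior count of 2 and exact two-sided permutation tests (70 relabellings, 16 tests; 4900 relabellings within genotypes, 4 tests, added after seeing the data). Overlapping and antisense genes were found from annotated exons, and shared stretches from all annotated transcripts.

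The 10 members, the gene lists (relatives, cofactors, targets, cell type markers) and the tests were chosen with earlier results of these data known. Named from each list were up to 6 genes with the largest changes among those called in a comparison. Hes1, Zfpm2, Pln, Casq2 and Myl4 and the 3 promoters printed were chosen after their values were seen. Alternatives were RLE size factors, DESeq2 1.42.0, other filters, a threshold of 0.01, scaling without mitochondrial genes, model terms for animal numbers starting with 25 or 33, fits to the 8 libraries compared and the omission of each library, and, for ratios, a prior count of 0.5; added after seeing the data were the gene lists without the library labelled KO TAC 4 or Ctrl TAC 2 and lengths of principal transcripts. One listed marker is not reported here. The edgeR p-values rest on 1 estimate of the spread per gene, shared by the 4 groups and drawn in part from the other genes. Permutation p-values rest on the libraries relabelled. Neither reaches beyond the variation between these animals, 4 per group.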

Additional observations from a re-analysis of the deposited data

Results flagged for a closer look

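In 4 of the 56 groups of 4 libraries examined (the 10 factors and 4 ratios, in 4 groups each), 1 library lay farther from the others than Dixon's 95% limit, and chance alone flags about 1 group in 20. Gata6 was at 58.1 CPM in Ctrl sham 4, with 51.3 to 51.9 CPM in the other Ctrl sham libraries. Its call in Ctrl hearts was lost without that library (log2 fold change -0.18, edgeR adjusted p = 0.106). Nkx2-5 was at 57.8 CPM in KO TAC 3, against 50.6 to 51.8 in the other KO TAC libraries. Ctrl sham 2 stood out for 2 factors, with Hey2 at 4.98 CPM (others 3.29 to 3.44) and Mef2c at 61.3 CPM (others 52.99 to 53.9). Neither Nkx2-5 nor Mef2c was called in Ctrl or KO, with or without these libraries.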

How the results depend on the processing

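No paired analysis was possible because the replicate numbers were given in accession order and tie no animals together. Among 1540 recomputed values for single factors, 1491 kept their side of the threshold, 31 lost a call and 18 gained one. The 1540 include the genotype comparisons and the interaction, where 0 factors were called throughout, so they say little about calls made. Losses fell on Hey2 averaged over genotypes (14 of 25 alternatives), Mef2a in KO (9 of 26), Gata6 in Ctrl (7 of 26) and Gata6 in KO (1 of 26). No called value changed sign, and 39 of the 1491, called in neither fit, did. DESeq2 also called Mef2d in Ctrl (adjusted p = 0.0439), Hey2 in KO (0.0445) and Hand2 averaged over genotypes (0.0386). Tbx5 and Tbx20 in each genotype, Mef2a in Ctrl and Gata4 in KO were called under all 26 alternatives. The number of factors called was 3 to 5 in Ctrl, 4 to 7 in KO and 6 to 8 averaged over genotypes, and 0 in the other comparisons. All genes called ranged from 2076 to 4098 in Ctrl, 4222 to 6584 in KO and 5387 to 7802 averaged over genotypes. In the main fit these backgrounds were 20.0%, 34.3% and 41.5% of genes. KO TAC against Ctrl TAC called 489 genes, but 12 with a term for animal numbers starting with 25 and 1183 by DESeq2. Without single libraries it called 63 to 733, lowest without Ctrl TAC 2. The interaction called 2, but 132 by DESeq2 and 0 to 18 without single libraries. A threshold of 0.01 left 2076 of 3652 genes in Ctrl. The cause was not tested. Other scalings moved the median of all genes by less than 0.1 on the log2 scale. Hey2, at 162 to 319 counts per library, has the least depth, and the annotation used for counting, the strand and the genotype of the library labelled KO TAC 4 limit what the values can show. Numbers starting with 25 hold 3 Ctrl TAC and 1 KO TAC animal and no sham animal, and numbers starting with 33 hold 1 Ctrl sham and 3 KO sham animals, so neither gives a TAC effect. Numbers starting with 34 hold 1 KO sham, 3 KO TAC and 1 Ctrl TAC animal, too few for a test. There Tbx5 was at 20.6 CPM in the KO sham animal against 11.6 to 15.00 in the KO TAC animals, and Tbx20 at 49.2 against 83.3 to 104. Gata6 was at 52.8 against 41.4 to 45.5, Gata4 at 64.5 against 74.7 to 98.01 and Mef2a at 207 against 151 to 158. Only the factors called in KO are listed here. Their calls rest in part on these same libraries, so the values add no separate support.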
